A study of Mus musculus with 15 samples.

Results

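Estriol (E3) was compared with estradiol (E2) in the mouse uterus 2 hr after a single injection. The comparison rested on 6 of the 15 microarrays of the series, the 3 arrays labelled E3 at 2 hr and the 3 labelled E2 at 2 hr, and these were chosen by their labels alone. All groups were adult females of at least 10 weeks that had been ovariectomized and rested for 10 to 14 days. The hormone groups received 250 ng of E2 or E3 in 100 µl of saline by intraperitoneal injection, and the control group, collected at 24 hr, received saline without hormone. The strain label of the E2 mice at 2 hr was C57bl6/Jx129 with a WT *Esr1* genotype, whereas the E3 mice at 2 hr and the saline mice were labelled C57bl6/J. The labels describe uteri homogenized singly, while the methods of the study speak of pooled tissue, so p-values here measure the spread between arrays, which may be partly technical. Each array was a 1-color whole-genome Agilent design, and a level is the log2 signal of a probe minus the log2 of the 75th percentile of that array, so that a probe as bright as the 75th percentile has a level of 0.

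Both hormones act through estrogen receptor α, the nuclear receptor encoded by *Esr1*, which in the uterus switches on a first wave of transcripts for immediate early factors, growth factors and regulators of fluid uptake, and later a wave of DNA synthesis and mitosis in the epithelium. Estriol differs from estradiol by an additional hydroxyl group on the D ring, and it is known as a short-acting estrogen that brings about early uterine responses more readily than late ones. The question of the comparison at 2 hr was whether the first wave differed between the compounds. They form 1 pair at 1 dose and 1 time.

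The 2 sides of the comparison did not share a strain label, a slide, a scanner or a scan day. The E2 arrays at 2 hr lay on slides 1 and 2 and were read on scanner 1, and the E3 arrays lay on slide 4, together with saline replicate 3, and were read on scanner 2, as were all other groups. The E2 arrays at 2 hr were scanned on day 1 and all others on day 2. Compound, strain label, slide, scanner and scan day therefore cannot be told apart. The 75th percentile of the 6 arrays ranged from 3363 to 4211.8 intensity units, and between 77.7% and 81.2% of probes were well above background, and precision is limited by having 3 arrays a group. The 10 uterus markers were measured on all 6 arrays. Their summed linear level was 202 to 209 with E2 and 173 to 196 with E3, relative to a 75th percentile of 1, and was carried by the brightest genes. Of the 10, 4 (40%) passed an adjusted p of 0.05 lower after E3 in the limma fit, against 22.9% of all genes, and none passed higher. Their log2 differences, E3 minus E2, were -0.89 for *Esr1*, -0.57 and -0.54 for the homeobox genes *Hoxa11* and *Hoxa10*, and -0.33 for *Pgr*.

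Transcripts of other tissues stood apart between the arrays. The summed level of 18 liver genes was 2.00 to 2.86 on the E2 arrays, 5.91 to 9.74 on the E3 arrays and 12.8 to 36.8 on the saline arrays. The defining liver transcripts *Fabp1*, *Fgb* and *Apoa1* were not well above background on any E2 array and were well above it on all 3 E3 arrays. The sum of 13 exocrine pancreas genes was 0.641, 984 and 18.2 on E3 replicates 1, 2 and 3, against 0.42 to 0.536 with E2. The sum of 17 lymphocyte genes was 7.15, 18.5 and 47.4 on the same E3 arrays, against 4.04 to 4.50 with E2 and 5.6, 30.5 and 5.8 on the saline arrays. Of the E3 arrays, replicate 1 had the lowest pancreas and lymphocyte sums, replicate 2 the highest pancreas and liver sums, and replicate 3 the highest lymphocyte and the lowest liver sum. Genes of these lists and immunoglobulin genes were set aside from the named genes, and results were recomputed without each array. In a whole uterus, fewer cells of a type and less RNA per cell cannot be told apart.

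In the limma fit over all 15 arrays, 34751 probes were tested. A probe was called when p was below 0.001 and the change at least 2-fold, and 2562 probes (7.37%) were called between E3 and E2 at 2 hr. Of these, 534 (1.54% of all probes) were higher after E3 and 2028 (5.84%) were lower. Background correction by normexp gave far fewer calls in both directions, as listed in the closing section on processing. The calls fell mostly on dim probes. Of 6219 probes with a mean level below -6, 12.7% were called, whereas of 4118 probes with a mean level of 2 or more, 2.5% were called. The 3 E2 arrays lay outside the range of all 12 other arrays for 1997 (77.9%) of the called probes, against 28.1% of all probes tested, and the 3 E3 arrays did so for 276 (10.8%) of the called probes against 5.85%. The E2 arrays, which differ from the other 12 in strain label, slide, scanner and scan day, thus stood apart more often than the E3 arrays. The arrays of the 2 groups did not overlap for 51% of all probes tested.

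**Figure D1:**
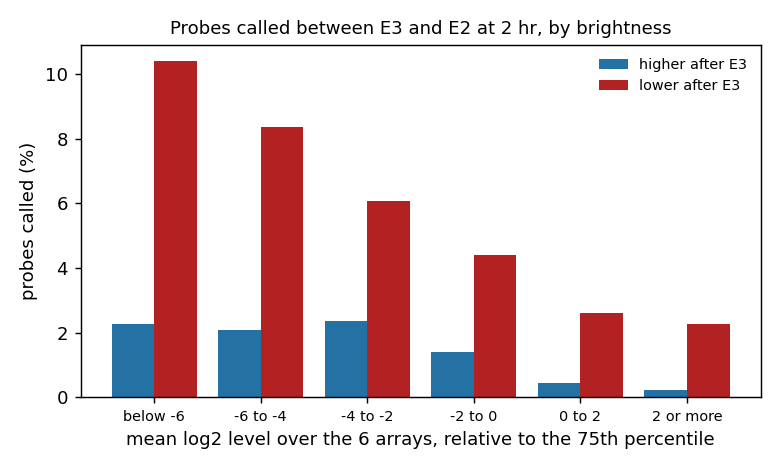
Share of probes called between E3 and E2 at 2 hr (vertical axis, percent of the probes in a bin) against the mean log2 level over the 6 arrays relative to the 75th percentile (horizontal axis, 6 bins). Blue bars are probes higher after E3 and red bars probes lower after E3. Probes lower after E3 were more frequent than probes higher in every bin and grew rarer with brightness, and probes higher after E3 were rare above a level of 0.

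A single gene was often represented by several probes, which allowed a check within each array. Of 3425 genes with at least 2 probes at a mean level of -2 or more, 251 had a called probe, and 88 of these (35.1%) also had a bright probe whose difference pointed the other way. A gene was taken as agreeing when at least 2 bright probes were called in 1 direction and no other bright probe had the opposite sign. Only 5 genes met this rule, *Kif20a* and *Htatip2* higher after E3 (0.0584% of the 3425 genes) and *Cab39*, *D230015J17Rik* and *1810008A14Rik* lower (0.0876%). Leaving out single arrays gave 1 to 7 genes higher and 4 to 8 lower: 7 higher and 6 lower without E3 replicate 1, 6 and 8 without E2 replicate 1, 3 and 4 without E3 replicate 2, 2 and 5 without E3 replicate 3, 2 and 6 without E2 replicate 2, and 1 and 5 without E2 replicate 3. Without scaling between arrays there were 1 higher and 12 lower, and at a minimum level of 0 there was none higher. Probes of a gene share the RNA of the array and are not replicates. The 2 *Kif20a* probes shared 33 bases and the 2 *1810008A14Rik* probes 48, so that these pairs are close to a single measurement.

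*Cab39*, which encodes MO25α, a scaffold that activates the kinase LKB1, had 3 bright probes, all lower after E3, of which 2 were called. Its level was 2.87, 3.19 and 3.19 on the E2 arrays and 1.53, 1.44 and 1.76 on the E3 arrays. All E3 arrays lay below all E2 arrays and within the range of the other groups, where the 12 other arrays spanned 1.1 to 1.82. The difference was -1.51 ± 0.11 (SE, n = 3 arrays a group), with a 95% interval of -1.75 to -1.26 and an adjusted p of 2.69e-06. Its 3 probes do not overlap, lie on the plus strand of chromosome 1 within about a kilobase of each other in the mm7 build named in the array files, and differed by -1.51, -1.12 and -0.77. Their first 30 of 60 bases are shown because 3 separate sequences gave the same direction. The probe pairs of *D230015J17Rik* and *Htatip2* did not overlap either. With no annotation of that build in use, the exon or untranslated region they match was not determined.
Cab39 probe 1, chr1:85750708-85750767: gtacagcagaggaatgttattgtagtagta
Cab39 probe 2, chr1:85750402-85750461: ggggaggataaagttggtgtgcaaataaat
Cab39 probe 3, chr1:85751520-85751579: ggttttaaggtttccttcaaggaatacaag

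The other 2 genes that were lower after E3 are little characterized transcripts. *D230015J17Rik* had levels of 0.11, -0.1 and -0.05 with E2 and -1.16, -1.35 and -1.59 with E3, while its saline mean was -2.45. The E3 arrays lay between the saline and the E2 arrays, with a difference of -1.35 ± 0.13 (SE, adjusted p = 1.49e-05 by limma). *1810008A14Rik* had levels of 2.92, 2.82 and 3 with E2 and 1.9, 1.77 and 1.77 with E3, against a saline mean of 2.1. Here E3 lay below both saline and E2.

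Of the genes higher after E3, *Kif20a* encodes a kinesin that works in cytokinesis. Its level was -1.02, -0.47 and -0.54 with E2 and 0.6, 1.01 and 1.68 with E3. The groups did not overlap, and the difference was 1.77 ± 0.30 (SE, adjusted p = 0.000593). *Htatip2*, also named TIP30, encodes an oxidoreductase known for a part in apoptosis. Its level was -1.09, -1.64 and -1.43 with E2 and -0.79, -0.37 and 0.16 with E3, with a difference of 1.05 ± 0.22 (SE, adjusted p = 0.00209). The saline mean of *Kif20a* was 0.34 and that of *Htatip2* was -0.22, both above the E2 arrays, and in both genes E3 replicate 3, the array with the most lymphocyte RNA, was highest. The part of that RNA in these differences was not tested.

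**Figure D2:**
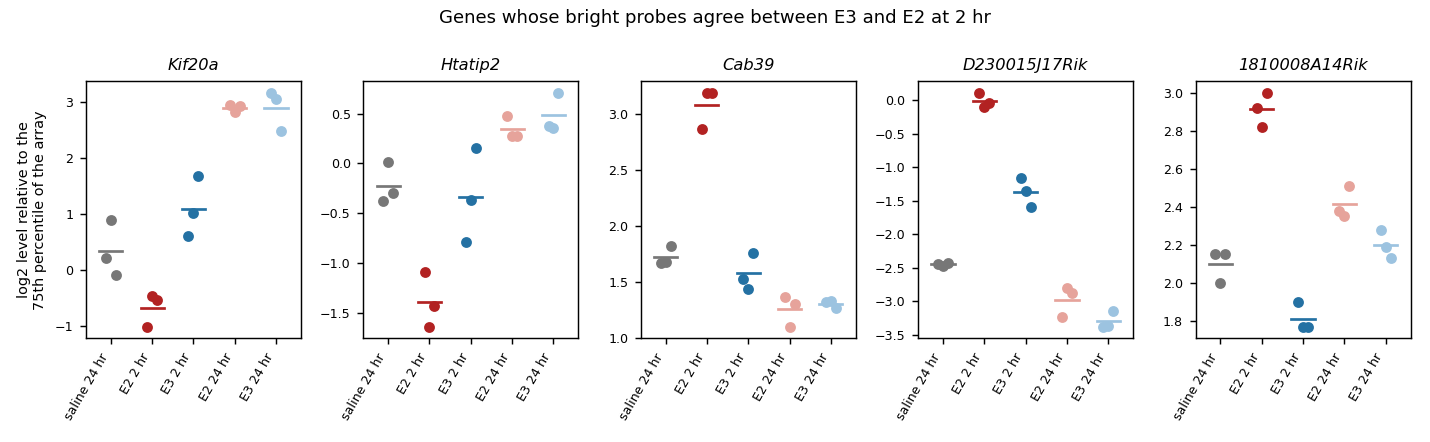
Log2 level relative to the 75th percentile of the array (vertical axis) of the 5 genes whose bright probes agreed, by their brightest probe. Points are single arrays of the 5 groups (n = 3 each) and bars are group means. *Cab39*, *D230015J17Rik* and *1810008A14Rik* are higher on the 3 E2 arrays at 2 hr than on any E3 array at 2 hr, and *Kif20a* and *Htatip2* are lower there.

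When agreement was judged by an adjusted p below 0.05 with no minimum change, an alternative chosen after the data were seen, 209 of the 3425 genes (6.1%) were higher after E3 and 392 (11.4%) lower. The 10 a direction with the largest difference of their least changed probe included 16 genes not yet described. Those higher after E3 by 0.9 to 1.71 were *Mki67*, *Laptm5*, *Pycard*, *Pon3*, *Ero1b*, *Mylk*, *Mri1* and *H2ac10*. Several of these genes are known from other tissues: *Laptm5* encodes a lysosomal protein of blood cells, *Pycard* the inflammasome adaptor ASC, *Pon3* a paraoxonase made in the liver and *Ero1b* an oxidase of the endoplasmic reticulum prominent in the pancreas. *Ero1b* had levels of -0.96, -0.06 and 0.15 on E3 replicates 1, 2 and 3, where the pancreas sums were 0.641, 984 and 18.2, and the part of pancreas RNA was not tested. *Laptm5* had levels of -1.08, -0.55 and 0.76 and followed the order of lymphocyte RNA. *Mylk*, the myosin light chain kinase of smooth muscle, was uniform over the E3 arrays, with levels of 4.53, 4.19 and 4.13 with E2 and 5.35, 5.18 and 5.28 with E3, and its difference was 0.99 ± 0.12 (SE, adjusted p = 8.05e-05). Probe pairs of *Pycard* and *Pon3* shared 40 bases and those of *Mri1* 15, and *H2ac10* belongs to a family of near-identical histone genes, so its identity is uncertain.

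The genes lower after E3 by 0.89 to 1.25 were *Nsun6*, *Wtap*, *Med1*, *Kbtbd9*, *Sec24a*, *Maf*, *E2f6* and *Mgat5*. *Wtap* and *Nsun6* encode parts of the RNA methylation machinery, *Med1* a Mediator subunit that binds nuclear receptors, *Sec24a* a coat protein of vesicles leaving the endoplasmic reticulum, *E2f6* a repressor of the E2F family and *Mgat5* a glycosyltransferase. *Wtap* had levels of 2.4, 2.29 and 2.39 with E2 and 1.61, 1.51 and 1.07 with E3, with a difference of -0.96 ± 0.16 (SE, adjusted p = 0.000475). *Med1* had levels of 1.61, 1.94 and 3.16 with E2 and 0.88, 1 and 1.08 with E3, and E2 replicate 3 stood high. In all 8 genes the probe pairs did not overlap in sequence.

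Immediate early genes were described by 24 transcription factors and regulators. Of these, none passed an adjusted p of 0.05 higher after E3 and 6 passed lower, where 17.2% and 22.9% of all 18802 genes did so, and 2 were called lower against 3.63% of all genes. Their median difference was -0.28, against -0.02 over all genes. *Fos*, a subunit of the AP-1 factor, had levels of 3.78, 3.31 and 2.94 with E2 and 3.22, 2.78 and 2.68 with E3, and a saline mean of -2.42. The groups overlapped and both lay far above saline, and the difference was -0.45 with a 95% interval of -0.95 to 0.05. *Egr1* differed by 0.23 (interval -0.24 to 0.71), *Myc* by 0.14 (-0.16 to 0.43) and *Klf4* by -0.01 (-0.31 to 0.28). A p that misses the threshold does not show that the compounds act alike, and the intervals give the range of differences these arrays allow. *Ier2* and *Klf10*, both at -0.43, and *Nr4a2* at -0.56 passed lower. *Maff*, a small Maf protein, was called. It had levels of 4.01, 3.47 and 3.41 with E2 and 2.6, 2.58 and 2.53 with E3, and the difference was -1.07 ± 0.20 (SE, adjusted p = 0.00124). The called *Nr4a3* was not well above background on any E3 array.

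A further list held early uterine transcripts that the study took from earlier work on E2 and followed by RT-PCR. Of its 11 members, 1 (9.09%) passed higher, 3 (27.3%) passed lower and none was called, shares near or below those of all genes. *Mad2l1*, a spindle checkpoint gene, had levels of 2.74, 2.72 and 2.87 with E2 and 3.32, 3.35 and 3.16 with E3, while its saline mean was -1.09. It was thus far above saline with both compounds and 0.50 ± 0.16 higher with E3 (SE, adjusted p = 0.0246), with 2 probes at 0.5 and 0.52. *Gadd45g*, a stress-inducible growth regulator, passed lower at -0.62 ± 0.10, with E2 levels of 7.19, 7.21 and 7.27 and E3 levels of 6.46, 6.75 and 6.62. *Inhbb*, a subunit of inhibin and activin, passed lower at -0.38 by its brighter probe, whereas its other probe was at 0.38. *Wnt4*, *Ccn1*, *Nr4a1*, *Stat5a*, *Ppp2r2c* and *Cdkn1a* did not pass. The 95% interval was -0.57 to 0.58 for *Ccn1* and -0.1 to 0.9 for *Wnt4*.

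**Figure D3:**
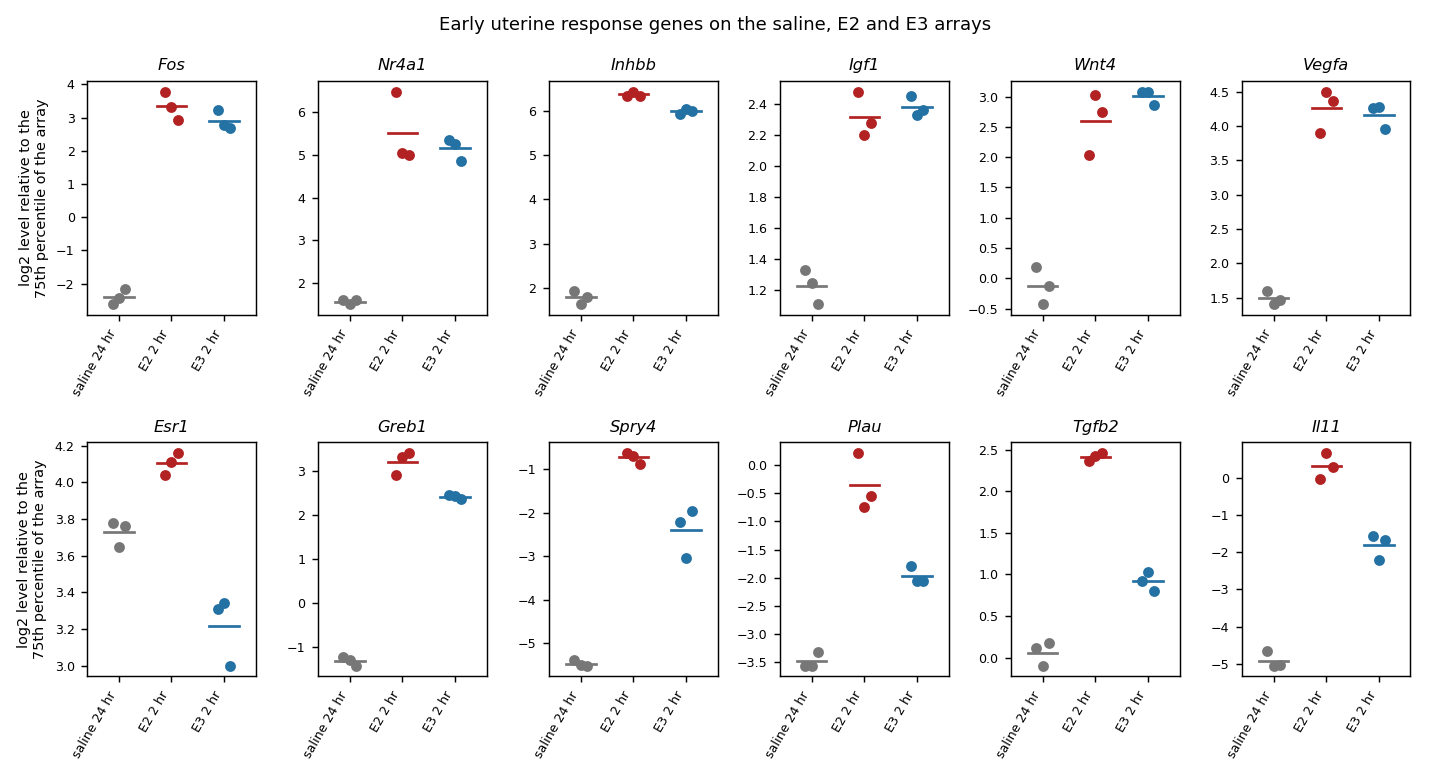
Log2 level relative to the 75th percentile of the array (vertical axis) of 12 genes of the early uterine response, by their brightest probe. Points are single arrays after saline (24 hr), E2 (2 hr) and E3 (2 hr), n = 3 each, and bars are group means. In the upper row E2 and E3 lie close together and above saline, and in the lower row E3 lies below E2, for *Esr1* also below saline.

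Among 22 hormone receptors and coregulators, none was called, 1 (4.55%) passed higher and 6 (27.3%) passed lower, where 17.2% and 22.9% of all genes did. The median of -0.10 was 0 over all probes of each gene and -0.03 under quantile normalization. *Esr1* itself had levels of 4.04, 4.11 and 4.16 with E2 and 3.31, 3.34 and 3 with E3. The E3 arrays lay below both E2 and saline (saline mean 3.73), and the difference was -0.89 ± 0.14 (SE, adjusted p = 0.000305). A second, dimmer *Esr1* probe differed by 0.14 in the other direction, so the 2 probes disagreed. *Greb1*, a textbook estrogen receptor target, had levels of 2.91, 3.3 and 3.4 with E2 and 2.45, 2.43 and 2.35 with E3, a difference of -0.80 ± 0.17 (SE, adjusted p = 0.00286), and its saline mean was -1.32. *Pgr*, the progesterone receptor, passed lower at -0.33 with its other probe at -0.01, *Foxo1* at -0.44 with its other probe at -0.63, and *Nr3c1*, the glucocorticoid receptor, at -0.41 with other probes up to 0.45. *Nrip1*, a corepressor, did not pass, with a difference of 0 and an interval of -0.25 to 0.25 by its brightest probe and -0.43 by the lowest of its 3 probes. *Esr2* levels were at the floor of the array on both sides (-9.05 to -7.95 with E2, -9.46 to -8.98 with E3).

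Of 35 growth factors and ligands, 4 passed higher and 7 lower, and 3 were called lower. The shares that passed were below the 17.2% and 22.9% of all genes, while 3.63% of all genes were called lower. *Tgfb2* showed the clearest separation. Its level was 2.36, 2.43 and 2.46 with E2 and 0.92, 1.03 and 0.8 with E3, while its saline mean was 0.06. The difference was -1.50 ± 0.09 (SE, adjusted p = 9.06e-07), a 2.83-fold lower level, measured by a single probe. *Bmp8a* was called at -1.55 and *Pdgfb* at -1.12, but the second *Pdgfb* probe stood at 0.19. Against these, *Igf1*, the growth factor that relays estrogen action from stroma to epithelium, had levels of 2.48, 2.2 and 2.28 with E2 and 2.45, 2.33 and 2.36 with E3. The compounds overlapped, and the difference of 0.06 had an interval of -0.17 to 0.29, although its 3 probes ranged from 0.06 to 0.61. *Inhba* at 0.02 (interval -0.34 to 0.38) and *Hbegf* at -0.23 (-0.55 to 0.1) did not pass either. *Wnt5a* at 0.68 ± 0.12 and *Hgf* at 0.65 ± 0.13 were higher after E3, and all 4 tested *Hgf* probes had that sign, from 0.29 to 0.70. Both genes had lower levels with either hormone than with saline.

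A list of 26 kinase feedback genes held genes that damp signaling and also kinases, namely *Pim1*, *Pim3*, *Sgk1*, *Plk2* and *Plk3*. Of the 26, 2 (7.69%) passed higher, 9 (34.6%) passed lower and 3 (11.5%) were called lower, against 17.2%, 22.9% and 3.63% of all genes. The median was -0.19. *Spry4*, an inhibitor of growth factor signaling, had levels of -0.63, -0.69 and -0.87 with E2 and -2.22, -3.03 and -1.97 with E3, and its saline mean was -5.47. E3 lay between saline and E2, and both probes were negative, at -1.68 and -0.46 (brighter probe -1.68 ± 0.32 SE, adjusted p = 0.00131). *Plk2*, a Polo-like kinase induced by serum, had levels of 5.11, 4.3 and 4.56 with E2 and 4.09, 3.44 and 3.44 with E3. Its difference of -1.0 ± 0.22 (SE) had an adjusted p of 0.00356. *Spry3* was called as well, but it was not well above background on any of the 6 arrays. *Dusp6* at 0.10, *Dusp1* at -0.04, *Socs3* at -0.35 and *Sgk1* at 0.12 did not pass. *Rgs16*, which shortens G protein signaling, passed higher at 0.73 ± 0.18.

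The vascular and fluid genes were spread about zero, with 3 of 30 (10%) passing higher and 5 (16.7%) lower, both below the shares of all genes, and a median of 0. That median was -0.09 without scaling between arrays. *Vegfa*, the chief vascular permeability factor, did not pass, at -0.09 with an interval of -0.46 to 0.28, although both compounds lay well above saline (saline mean 1.49, E2 mean 4.25, E3 mean 4.16). *Plau*, which encodes urokinase, was called. Its level was 0.21, -0.75 and -0.55 with E2 and -1.79, -2.05 and -2.05 with E3, and both probes were lower, at -1.6 and -1.08 (brighter probe adjusted p = 7.33e-05). *Adm*, the vasodilator adrenomedullin, passed lower at -0.80 ± 0.12, and *Aqp1*, a water channel, at -0.84 ± 0.20. *Ptger2*, a prostaglandin E receptor, was called higher at 1.27 ± 0.24, with levels of -4.17, -4.64 and -5.21 with E2 and -3.66, -3.55 and -3.01 with E3. Both compounds lay below its saline mean of -1.74.

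Inflammatory genes had a median of 0.66, but 2 of 26 (7.69%) passed higher and 4 (15.4%) passed lower, both below the 17.2% and 22.9% of all genes. Most of them were higher on E3 replicate 3 than on the other E3 arrays. *Tnf*, for example, had levels of -4.48, -3.65 and -2.28 on E3 replicates 1, 2 and 3 against -5.2, -5.37 and -5.3 with E2, in the order of the lymphocyte sums of 7.15, 18.5 and 47.4. The 2 called genes went the other way. *Il11*, a cytokine of the uterine stroma, had levels of -0.03, 0.66 and 0.28 with E2 and -1.56, -2.21 and -1.67 with E3, and a saline mean of -4.92. At -2.12 ± 0.20 (SE, adjusted p = 1.12e-05), a 4.35-fold lower level, it had the lowest difference of all members of these lists. *Cebpb*, a transcription factor of the endometrium, had levels of 6.48, 6.25 and 6.35 with E2 and 5.36, 5.29 and 5.3 with E3, a difference of -1.04 ± 0.18. The second *Cebpb* probe differed by -0.12.

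Of 19 heat shock genes, a list written with earlier results of these data known, none passed higher and 14 (73.7%) passed lower, against 22.9% of all genes, and 2 (10.5%) were called lower, against 3.63%. The median was -0.58. Their summed level was 448, 471 and 400 on the E2 arrays, 294, 284 and 292 on the E3 arrays and 229, 202 and 192 on the saline arrays, so E3 lay between saline and E2 without overlap. *Hsp90aa1*, the inducible chaperone that holds steroid receptors, had levels of 6.17, 6.21 and 5.94 with E2 and 5.46, 5.41 and 5.5 with E3 (difference -0.65 ± 0.11 SE, adjusted p = 0.000744). *Hsph1* at -0.82 and *Hspa1a* at -0.87 passed as well. *Cryab* at 0.07 and *Hspd1* at -0.14 did not. With all probes of each gene in place of the brightest the median was -0.29, and between 12 and 15 members passed lower when any single array was left out.

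The probes of both called heat shock genes disagreed. *Hsf1*, the master regulator of the heat shock response, had levels of 4.1, 3.76 and 4.21 with E2 and 1.91, 2.04 and 2.13 with E3 by its brightest probe. That probe gave -1.99 (adjusted p = 1.22e-06), the second 0.18 (adjusted p = 0.179) and the third 1.15 (adjusted p = 0.000101). *Hspa8*, the constitutive Hsc70, differed by -1.11 by its brightest probe and by -0.16 by the other, and the array files place both on chromosome 5, so that its identity is uncertain among the near-identical copies of this gene family. The first 30 of 60 bases of the 3 *Hsf1* probes, all on the plus strand of chromosome 15 (mm7), are given to show that the opposite values came from separate sequences.
Hsf1 probe 1, chr15:76582655-76582715: agccctgactccctccctcctcctgcagct
Hsf1 probe 2, chr15:76583299-76583358: ccagtggagcacagatggaacttggtcctg
Hsf1 probe 3, chr15:76583221-76583280: atccctaggacatggctggtcctagggaga

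The promoters of this group were read from RefSeq (GRCm38.p6), which held a window for 14 of the 19 genes. The heat shock element, read as alternating GAA, TTC and GAA units set apart by pairs of any bases, on either strand, occurred in the 250 bases before the start of 2 of the 14 genes (14.3%) and of 0.514% of all 27025 genes. Both belong to the shared promoter from which *Hspd1* and *Hspe1*, the mitochondrial chaperonin and its cofactor, are read in opposite directions. The windows of both genes hold this stretch, and *Hspe1* passed lower at -0.66 ± 0.10 and *Hspd1* did not pass at -0.14 (interval -0.35 to 0.06). The stretch is shown in the direction of each gene, with the overlapping matches in capitals. A match is a description of these letters, not a bound site.
Hspe1, chr1:55088038-55088097, plus strand: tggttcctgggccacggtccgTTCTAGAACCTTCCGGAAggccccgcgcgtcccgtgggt
Hspd1, chr1:55088038-55088097, minus strand: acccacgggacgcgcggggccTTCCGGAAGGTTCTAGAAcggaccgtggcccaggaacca

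Of 30 ribosome biogenesis genes, 2 (6.67%) passed higher and 11 (36.7%) lower, against 17.2% and 22.9% of all genes, with a median of -0.18. *Nop56* and *Nop58*, core proteins of the small nucleolar particles that modify ribosomal RNA, had differences of -0.91 ± 0.12 and -0.79 ± 0.10. *Nop56* had levels of 5.01, 5.24 and 5.4 with E2 and 4.4, 4.26 and 4.24 with E3, above a saline mean of 3.27. *Polr1b*, a subunit of RNA polymerase I, was called at -1.98, with E2 levels of 0.75, 1.07 and 1.1 and E3 levels of -0.7, -1.36 and -0.95. *Bop1* passed in the other direction at 0.60 ± 0.13. Of 22 genes of protein folding in the endoplasmic reticulum, 2 (9.09%) passed higher and 5 (22.7%) lower, neither above the share of all genes, and none was called. The 82 ribosomal protein genes passed lower in 40 cases and higher in 4, with a median of -0.29, but under quantile normalization the median was -0.01, so their direction depends on the scaling.

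In a list of cell cycle entry genes, which holds cyclins, licensing factors and inhibitors, 13 of 27 (48.1%) passed higher and 4 (14.8%) lower, against 17.2% and 22.9% of all genes, and none was called. The median was 0.29, and 0.17 over all probes of each gene. Their summed level, carried by the brightest genes, was 86.6 to 94 with E2, 86.1 to 92.2 with E3 and 97.2 to 105 with saline. *Rbl1*, a pocket protein, had levels of -1.21, -1.21 and -1.14 with E2 and -0.56, -0.51 and -0.17 with E3, and a saline mean of -0.4. *Mcm5*, a helicase subunit, passed higher at 0.86 ± 0.19, and its saline mean of 1.03 lay between the E2 mean of 0.62 and the E3 mean of 1.48. *Cdkn1c*, an inhibitor of cyclin-dependent kinases, went the other way with levels of 4.23, 4.36 and 4.43 with E2 and 3.45, 3.33 and 3.28 with E3, as did *Cdkn1b* at -0.48. Of the 13 genes that passed higher, 8 were highest among the E3 arrays on replicate 3 and 7 were highest among the saline arrays on replicate 2, the arrays with the most lymphocyte RNA, whose part was not tested. *Ccnd1*, the cyclin of early G1, did not pass, at 0.16 with an interval of -0.11 to 0.43.

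A list of 40 mitosis genes was written after *Kif20a* and *Mki67* had been seen among the genes higher after E3, so it supports nothing by itself. All 40 had differences above 0, 33 passed higher and 16 were called higher, where 17.2% and 1.53% of all genes did so, and the median was 1.20. *Ccnb2*, a mitotic cyclin, had levels of -1.56, -0.83 and -0.8 with E2 and 0.45, 0.83 and 1.57 with E3 (difference 2.02 ± 0.35 SE, adjusted p = 0.000739). *Bub1b*, of the spindle checkpoint, had levels of -1.95, -2.05 and -1.93 with E2 and -0.96, -1.04 and -0.59 with E3, and E3 replicate 3 was again highest. Its difference was 1.11 ± 0.13 (SE, adjusted p = 5.9e-05). *Cks2* at 0.13 and *Birc5* at 0.46 did not pass.

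Values of the mitosis list moved with the lymphocyte genes over the arrays. The summed mitosis level was 25.3, 31.7 and 34 with E2, 45, 52.2 and 79.2 with E3 and 26.6, 46.1 and 23.4 with saline, and the lymphocyte sums had the same order within the E3 group and the same highest array within the saline group. E3 replicate 1, with a lymphocyte sum of 7.15 against 4.04 to 4.5 on the E2 arrays, lay 0.87 above the E2 mean in the median mitosis gene. E3 replicate 3 lay 1.80 above it. Without E3 replicate 3, 23 members passed and 5 were called, and without E2 replicate 1, 25 passed and 4 were called. The number called was 9 without E3 replicate 2, 7 without E2 replicate 2 and 10 without E2 replicate 3. How much of the difference came from lymphoid RNA was not tested.

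**Figure D4:**
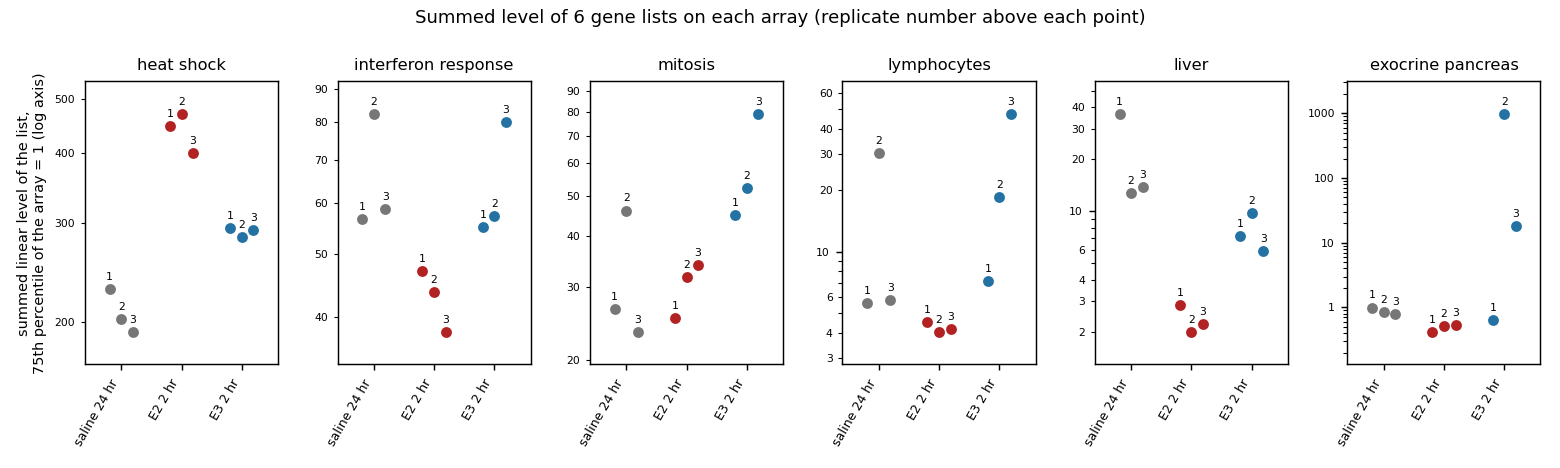
Summed linear level of 6 gene lists on each array, with the 75th percentile of the array set to 1 (vertical axes, log scale), after saline (24 hr), E2 (2 hr) and E3 (2 hr). Each point is an array and the number above it is its replicate. Heat shock genes were lowest with saline and highest with E2. Mitosis and lymphocyte genes were both highest on E3 replicate 3, and pancreas genes were high on E3 replicates 2 and 3 only among the arrays shown.

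The differences of 25 interferon response genes ranged from 0.08 to 2.04 by their brightest probes, while *Ddx58* and *Ifih1* also had probes below 0, down to -1.54 and -0.13. Of the 25, 17 (68%) passed higher and 3 (12%) were called higher, against 17.2% and 1.53% of all genes, none passed lower, and the median was 0.69. *Isg15*, a ubiquitin-like modifier, had levels of -0.51, -0.58 and -0.75 with E2 and 0.33, 0.39 and 0.89 with E3. Its saline mean was 0.06. The array files place its single probe on chromosome 17, whereas RefSeq places the gene on chromosome 4, so the identity of that probe is uncertain. *Oas2*, a sensor of double-stranded RNA, was uniform over the E3 arrays, with levels of -1.37, -1.16 and -1.4 with E2 and -0.13, 0.02 and -0.04 with E3, and its 2 probes were at 1.25 and 2.08. *Oasl1* was called at 2.04 ± 0.30 (SE, adjusted p = 0.000204). The saline arrays lay nearer to E3 than to E2, with sums of 56.7, 82.4 and 58.8 against 38 to 47.2 with E2 and 55.1 to 80.1 with E3. Saline replicate 2 and E3 replicate 3, each highest in its group, were also the 2 arrays with the most lymphocyte RNA. At 24 hr the interferon sums were 83.3 to 87.6 with E2 and 80 to 123 with E3, with lymphocyte sums of 5.4 to 16.6 and 4.73 to 29.5. The part of lymphocyte RNA was not tested. Without E3 replicate 3, 12 members passed and 22 of 25 stayed above 0.

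RefSeq held promoter windows for 18 of the 25 interferon genes. The interferon-stimulated response element, read as a pair of GAAA runs set apart by any 2 bases, on either strand, occurred in the 250 bases before the start of 10 of them (55.6%), against 3.46% of all 27025 genes. Of the 10 genes with the element 7 passed higher, with a median difference of 0.69, and of the 8 windows without it 5 belonged to genes that passed, with a median of 0.84. Stretches of 60 bases are shown for a called gene, a gene with 2 separate elements and a gene with the element that did not pass, *Stat2* at 0.08 (interval -0.37 to 0.53), with all matches in capitals.
Isg15, chr4:156200856-156200915, minus strand: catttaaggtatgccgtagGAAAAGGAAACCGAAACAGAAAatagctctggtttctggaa
Ifit1, chr19:34640769-34640828, plus strand: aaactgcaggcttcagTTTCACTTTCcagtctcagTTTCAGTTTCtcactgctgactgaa
Stat2, chr10:128270251-128270310, plus strand: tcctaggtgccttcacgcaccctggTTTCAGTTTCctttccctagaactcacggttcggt

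The same windows were searched for the consensus estrogen response element, GGTCA and TGACC set apart by any 3 bases, which occurred before 18 of the 27025 genes (0.0666%). It was in none of the windows of 18 immediate early, 16 receptor and coregulator, 25 growth factor and 21 kinase feedback genes, which says only that these letters are not in those 250 bases.

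Among the remaining lists, 5 of 30 genes of amino acid and glucose supply (16.7%) passed higher and 4 (13.3%) lower, neither above the share of all genes. *Slc7a5*, an amino acid transporter, was far above its saline mean of -0.04 with both compounds and 0.60 lower with E3 (3.2, 3.29 and 3.32 with E2, 2.72, 2.77 and 2.53 with E3), whereas *Wars*, the tryptophanyl-tRNA synthetase, was 0.74 higher by its brightest probe and 0.67 by its other. Of 18 clock genes, 2 (11.1%) passed higher and 6 (33.3%) lower, against 17.2% and 22.9% of all genes: *Dbp* was 0.77 and *Nr1d1* 0.78 higher, the second with another probe at -0.13, and *Per2* at -0.62 and *Cry2* at -0.73 were lower with both of their probes. Since the time of day of collection is not given in the sources used here, its part in these values was not tested. Of 25 keratin and cornified envelope genes 1 passed lower and none higher. *Krt5*, a basal keratin, illustrates the spread, with levels of 0.13, 2.52 and 2.41 on the E3 arrays and -0.6, -0.84 and 0.01 on the E2 arrays, so that a difference of 2.16 had an adjusted p of 0.0594.

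**Figure D5:**
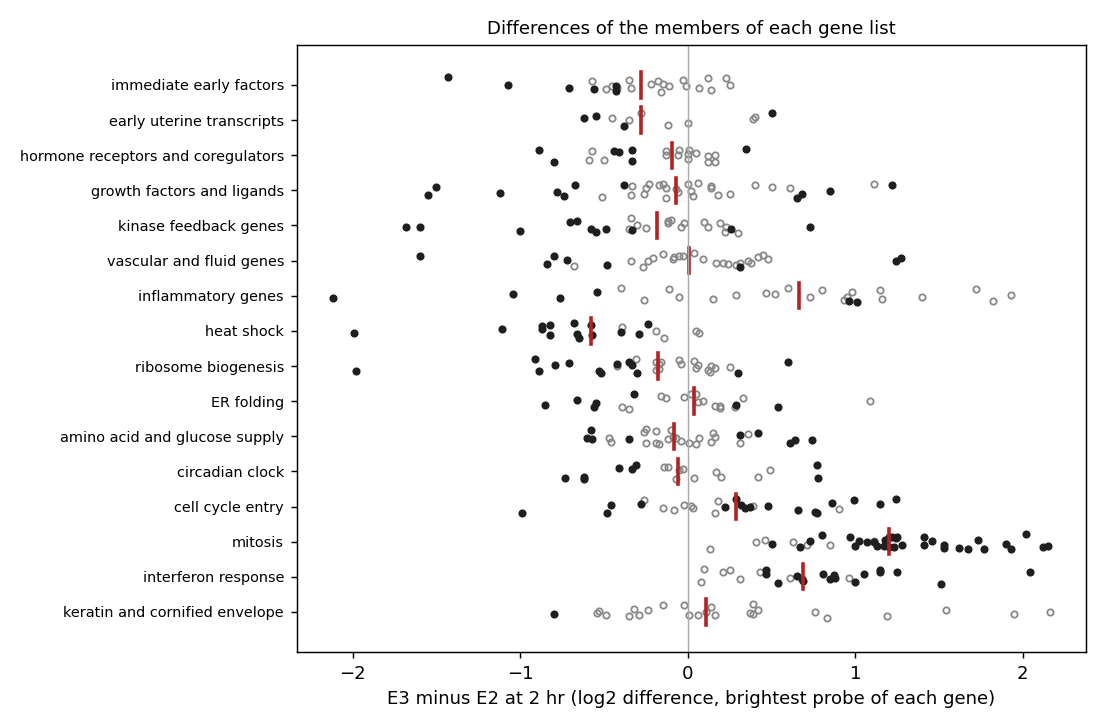
Log2 difference of E3 minus E2 at 2 hr (horizontal axis) of each member of 16 gene lists, by its brightest probe. Filled points passed an adjusted p of 0.05 in the limma fit, open points did not, and red bars are list medians. The median was -0.58 for heat shock, 0.69 for interferon response and 1.20 for mitosis genes, and the points of most other lists lie on both sides of 0.

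A short list of genes known to vary between mouse strains was read because of the strain labels. Of 8 such genes 1 (12.5%) passed higher, 3 (37.5%) passed lower and 1 was called lower, against 17.2%, 22.9% and 3.63% of all genes. *Entpd4*, a nucleotidase, had levels of 0.34, 0.13 and 0.35 on the E2 arrays and -0.96, -0.79 and -0.76 on the E3 arrays, and the saline mean was -0.56. The difference of -1.11 ± 0.12 (SE, adjusted p = 2.31e-05) separated the E2 arrays at 2 hr from both E3 and saline, and its second probe was at -0.32. The E2 arrays at 24 hr, labelled C57bl6/J and read on scanner 2, had levels of 0.16, 0.43 and 0.36, overlapping those of E2 at 2 hr. *Nnt*, which carries a deletion in C57BL/6J, passed lower at -0.33 with overlapping arrays and 4 probes from -0.33 to 0.52, and whether its probes lie inside the deleted part was not determined.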

How the data were processed

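RNA of mouse uteri was labelled and hybridised to 15 1-color Agilent arrays, 3 in each of 5 groups. The authors scanned the arrays with Feature Extraction (9.5 per the labels, 9.5.3.1 per the file headers). The deposited intensity values are processed signals, equal between the deposited series table and the scanner files, and the deposited flags (other) mark spots well above background, saturated or outlying. Here, control spots and 1893 outlier-flagged spots were left out, spots of a probe were averaged, and the log2 intensity was taken minus that of the 75th percentile of each array. A probe was kept where at least 2 arrays in any of the groups had it well above background. A linear model over the 5 groups was fitted with limma (3.58.1 in R 4.3.3, with the package data.table, version 1.17.8) with Benjamini-Hochberg adjustment, and the script was tested on simulated data. Figures were drawn with matplotlib 3.10.9.

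Groups were taken from the labels. Probe names came from the array files, with symbols updated through RefSeq for 56% of probes, and a gene was represented by its brightest probe. Named genes were up to 12 a direction with at least 2 agreeing probes and no overlap between the groups, leaving out liver, pancreas, lymphocyte and immunoglobulin genes, plus members of the gene lists. As only 5 met this, up to 10 a direction by the adjusted p were added after the data were seen, as was the mitosis list. Members of the lists were chosen with earlier results of these data known. Further marker lists gave a median difference of 0.27 for 7 fat, 0.18 for 7 skeletal muscle, -0.19 for 6 blood and 3.09 for 10 immunoglobulin genes. Alternatives covered the background correction, scaling, dim-probe filter, threshold, brightness, arrays entering the fit, slide and replicate blocks and leaving out each array. The 95% intervals are those of the model.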

Additional observations from a re-analysis of the deposited data

Results flagged for a closer look

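The difference between E3 and E2 was also measured at 24 hr. There both compounds shared strain label and scanner but not slides, with E2 on slides 6 and 7 and E3 on slide 5. The change from 2 hr to 24 hr was tested as an interaction in the same limma fit. Of all probes tested, 11% moved up and 4.41% moved down from 2 hr to 24 hr by p below 0.001 and at least 2-fold, so that a single such change is common. Most genes below were picked for their difference at 2 hr, which enters this change with the opposite sign. A move the other way is thus partly fixed by that choice, and the shares of all probes are no fair measure for these genes. Strain label, scanner and scan day change between the times for E2, slides change for both compounds, and compound and time cannot be told apart from them.

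Among genes that were lower after E3 at 2 hr, the difference moved up by 1.56 for *Cab39*, 1.02 for *D230015J17Rik*, 1.31 for *Nsun6*, 1.32 for *Kbtbd9*, 1.41 for *Maf* and 1.65 for *Mgat5*. At 24 hr *Cab39* differed by 0.05. It moved up by 1.72 for *Il11*, 1.63 for *Tgfb2*, 1.74 for *Plau*, 1.59 for *Aqp1*, 1.42 for *Pdgfb*, 1.4 for *Maff* and 1.1 for *Cebpb*. The value of 1.75 for *Nr4a3* has no clear size, since this gene was not well above background on any array of E3 at 2 hr or of either compound at 24 hr. It also moved up by 1.84 for the brightest *Hsf1* probe, by 1.54 for *Cdkn1c*, 1.17 for *Cdkn1b*, 1.19 for *Per2* and 1.38 for *Cry2*.

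Among genes higher after E3 at 2 hr, the difference moved by -1.9 for *Pycard*, -1.65 for *Mri1*, -1.5 for *H2ac10*, -1.27 for *Mad2l1*, -1.42 for *Wnt5a*, -1.3 for *Wars* and -1.89 for *Bop1*. The cell cycle genes *Rbl1*, *Mcm5* and *Bub1b* moved by -1.48, -2.49 and -1.18, and the interferon genes *Isg15*, *Oas2* and *Oasl1* by -1.36, -1.31 and -2.52. At 24 hr *Mad2l1*, *Bop1*, *Rbl1* and *Mcm5* differed by -0.77, -1.29, -0.71 and -1.63, each passing an adjusted p of 0.05 by limma. *Isg15*, *Oas2* and *Oasl1* differed by -0.21, -0.06 and -0.48 there and did not pass. The changes of other interferon genes did not pass the threshold, and *Ifit2*, *Ifit3*, *Rsad2*, *Ifit1* and *Mx2* moved by 0.01, 0.18, -0.04, -0.05 and -0.23, and at 24 hr they were higher after E3 by 0.82, 0.87, 0.84, 0.6 and 0.62 with adjusted p between 0.000916 and 0.0307 by limma. The median of the interferon list at 24 hr was 0.29. For *Igf1*, *Ccnd1* and *Klf4*, which did not pass at 2 hr, the difference moved by -1.34, -1.09 and -1.08.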

How the results depend on the processing

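The main analysis called 534 probes higher and 2028 lower after E3, with 2 and 3 genes agreeing over their probes. Background correction by normexp gave 198 higher and 579 lower, a minimum mean signal of 100 gave 1141 lower, and an adjusted p below 0.05 with a 2-fold change gave 1081 higher and 8 agreeing genes higher. Without a minimum change, p below 0.001 gave 2593 and 5273 probes and 83 and 162 genes, and an adjusted p below 0.05, added after the data were seen, gave 5882 and 9143 probes and 209 and 392 genes. Agreeing genes numbered 1 higher and 12 lower without scaling, 1 higher in a fit of the 6 arrays alone, 0 higher at a minimum level of 0, and 20 and 33 with no minimum level, also added later. Leaving out each array gave 417 to 655 probes higher and 1753 to 2074 lower, with 1 to 7 and 4 to 8 agreeing genes. The share of calls that were higher was 20.8%, and 13.4% without scaling, where the median of all probes was -0.15 in place of -0.06. It was 27.4% with the minimum mean signal. Without scaling the list medians were -0.19 for receptors and coregulators, -0.28 for kinase feedback, -0.09 for vascular genes (main value 0), -0.27 for ribosome biogenesis, 0.2 for cell cycle entry, -0.17 for amino acid and glucose supply, -0.33 for strain, 0.08 for skeletal muscle and -0.38 for ribosomal protein genes. Quantile normalization gave -0.03 for receptors, -0.11 for ribosome biogenesis, 0.32 for cell cycle entry, -0.06 for strain, 0.08 for uterus and -0.01 for ribosomal protein genes, and a percentile over well-measured probes gave 0.32 for cell cycle entry. Normexp gave -0.11 for kinase feedback, 0.24 for cell cycle entry, 1.91 for liver and 0.06 for skeletal muscle. All probes of each gene gave 0 for receptors, -0.25 for kinase feedback, -0.29 for heat shock, 0.17 for cell cycle entry, -0.09 for strain, 0.02 for uterus and 0.36 for skeletal muscle. The causes were not tested. Leaving out each array, medians ranged from 0.97 to 1.38 for mitosis, 0.56 to 0.82 for interferon and -0.68 to -0.51 for heat shock. The replicate numbers did not pair the arrays, as same-numbered deviations correlated at 0.04, 0.03 and -0.13, and a replicate block gave 494 probes higher and 1994 lower. Of the 21 genes named by probe agreement none changed direction under these settings, but they were chosen by direction in the same data. An adjusted p of 0.05 by limma was lost for 4 of them in the fit of the 6 arrays alone. It was lost for 2 without scaling, for 1 with normexp and for up to 2 without a single array. With 3 arrays a group, dim probes and effects of strain label, slide, scanner and scan day limit what can be resolved.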
